A study of Mus musculus with 12 samples.

Results

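The genes described here encode nuclear subunits of respiratory complex I, measured by RNA sequencing in whole mouse retina. A gene was taken as a member if its symbol was Nduf, then a, b, c, s, v or ab, then a number, so that the assembly factors (Ndufaf) stayed out. The rule found 37 of 25124 genes in each of the expression tables, on the same transcript in both, and all 37 passed the filter on low values. All mice were wild-type C57BL/6J, so no group carried a transgene or deletion. Intraocular pressure (IOP) was raised to 30 mmHg for 1 h in one eye only, and the untreated fellow eye was the control. One table held 8 libraries taken on day 2 after a single elevation, 2 each of 18mo IOP, 18mo control, 3mo IOP and 3mo control (mice aged 18 or 3 months). The other held 4 libraries, 2 of 4xIOP and 2 of 4xIOP control, from mice that were 3 months old when first treated, taken on day 2 after the last of 4 biweekly elevations. The comparisons ask how retinal transcripts differ with age, and with a mild pressure rise at each age or a repeated one. The labels do not say which treated and control libraries came from one animal. With 2 libraries a group, the p-values measure only the spread between these libraries, pooled for each gene over all groups of a table.

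Complex I is the entry point of the mitochondrial respiratory chain. It takes electrons from NADH, passes them along iron-sulfur clusters to ubiquinone, and pumps protons across the inner membrane. It is L-shaped: a peripheral arm in the matrix holds the flavin, the iron-sulfur clusters and the quinone site, and a membrane arm holds the proton pumps. The core subunits carry out catalysis, and part of them is encoded by mitochondrial DNA, whose transcripts were not analysed here. The accessory subunits, all nuclear, surround the core and are needed for assembly and stability. The retina, and its photoreceptors above all, has a high demand for mitochondrial ATP, and the optic nerve disease caused by mutations in complex I (Leber hereditary optic neuropathy) kills retinal ganglion cells. By role the members were 7 core subunits of the peripheral arm, 9 accessory subunits of the peripheral arm, 9 of the proximal membrane arm, 10 of the distal membrane arm, the acyl carrier protein Ndufab1, and Ndufa4, which bears a complex I name but is now counted as a subunit of complex IV.

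Values are FPKM as deposited, tags on a gene scaled by the length of its transcript and by the tags mapped in the library. Between 39766234 and 59455052 tags lay behind each library, and a member had between 59 and 43524 reads in a library. Most members are short: the transcript counted was under 1000 bases for 27 of 37, with a median of 676 bases and a range of 345 (Ndufa3) to 2655 (Ndufa11). Libraries differed in the level of short transcripts relative to long ones, and this is given first because it moves with the results. For genes that were not members, a short-to-long ratio was taken as the median FPKM of transcripts under 1000 bases over the median FPKM of those from 4000 bases up. It came to 2.91 and 8.93 for 3mo control, 7.01 and 5.39 for 3mo IOP, 1.56 and 1.496 for 18mo control, and 1.74 and 1.87 for 18mo IOP. It was 2.08 and 1.95 in 4xIOP control and 1.93 and 2.85 in 4xIOP. The ratio was therefore higher in every 3mo library than in every 18mo library, and the replicates of 3mo control stood furthest apart.

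The level of complex I as a whole followed the same order of libraries. The median member was at 76.5 and 190.4 FPKM in 3mo control, at 154.9 and 128.8 in 3mo IOP, at 34.9 and 33.7 in 18mo control, and at 39.8 and 45.4 in 18mo IOP. Set against the summed FPKM of mRNA records, the 37 members, Ndufa4 included, came to 1.44% and 2.65% in 3mo control and 2.14% and 2.02% in 3mo IOP. They came to 0.755% in both 18mo control libraries, and to 0.817% and 0.790% in 18mo IOP. Of these members 2 were counted on noncoding records, which the mRNA total leaves out. All 4 libraries of 3-month-old mice lay above all 4 libraries of 18-month-old mice, and the 3mo control replicate with the low ratio was the nearest to the old eyes. In the separately normalized second table the median member was at 48.6 and 43.5 FPKM in 4xIOP control and at 37.9 and 63.9 in 4xIOP. The plot of the median member against the short-to-long ratio shows both quantities for each library.

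**Figure D1:**
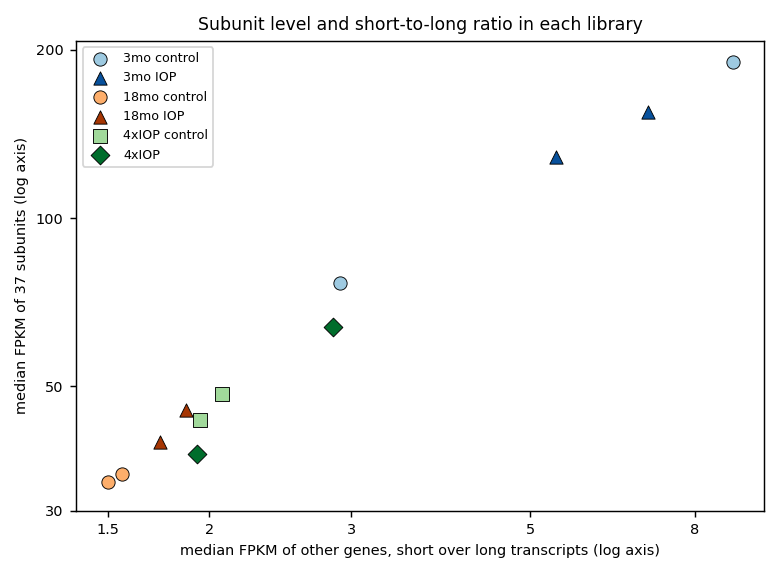
Median FPKM of the 37 complex I subunits (y, log axis) against the ratio of the median FPKM of other genes' short transcripts to that of their long transcripts (x, log axis), one point per library and 2 per group. The points run from 33.7 FPKM at a ratio of 1.496 in an 18mo control library to 190.4 FPKM at a ratio of 8.93 in a 3mo control library, and the 3mo control group spans more of the x axis than any other.

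Ndufa4 was the highest member in every library, with a mean of 1240.0 ± 871 FPKM in 3mo control, 1127 ± 48.8 in 3mo IOP, 215.7 ± 3.22 in 18mo control and 221.9 ± 2.40 in 18mo IOP (SD, n = 2). Below it came Ndufb11, a subunit of the distal membrane arm, at 405 ± 295 FPKM in 3mo control, and Ndufb8 of the same arm, at 86.2 ± 1.33 in 18mo control (SD, n = 2). Ndufab1, the mitochondrial acyl carrier protein that also serves fatty acid and lipoate synthesis, was lowest in 3mo control at 20.2 ± 11.2 FPKM. In 18mo control the lowest member was Ndufb4, at 3.93 ± 1.31 FPKM (SD, n = 2). In 3mo control 35 of 36 neighbours in the order of levels overlapped between their libraries, and in 18mo control 22 of 36 did, so that most neighbours cannot be ordered. Levels between genes also rest on the one transcript counted: for 8 of 37 members it differed by more than 300 bases from the principal transcript in GENCODE, most of all for Ndufab1 (547 against 3479 bases) and Ndufa11 (2655 against 545).

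**Figure D2:**
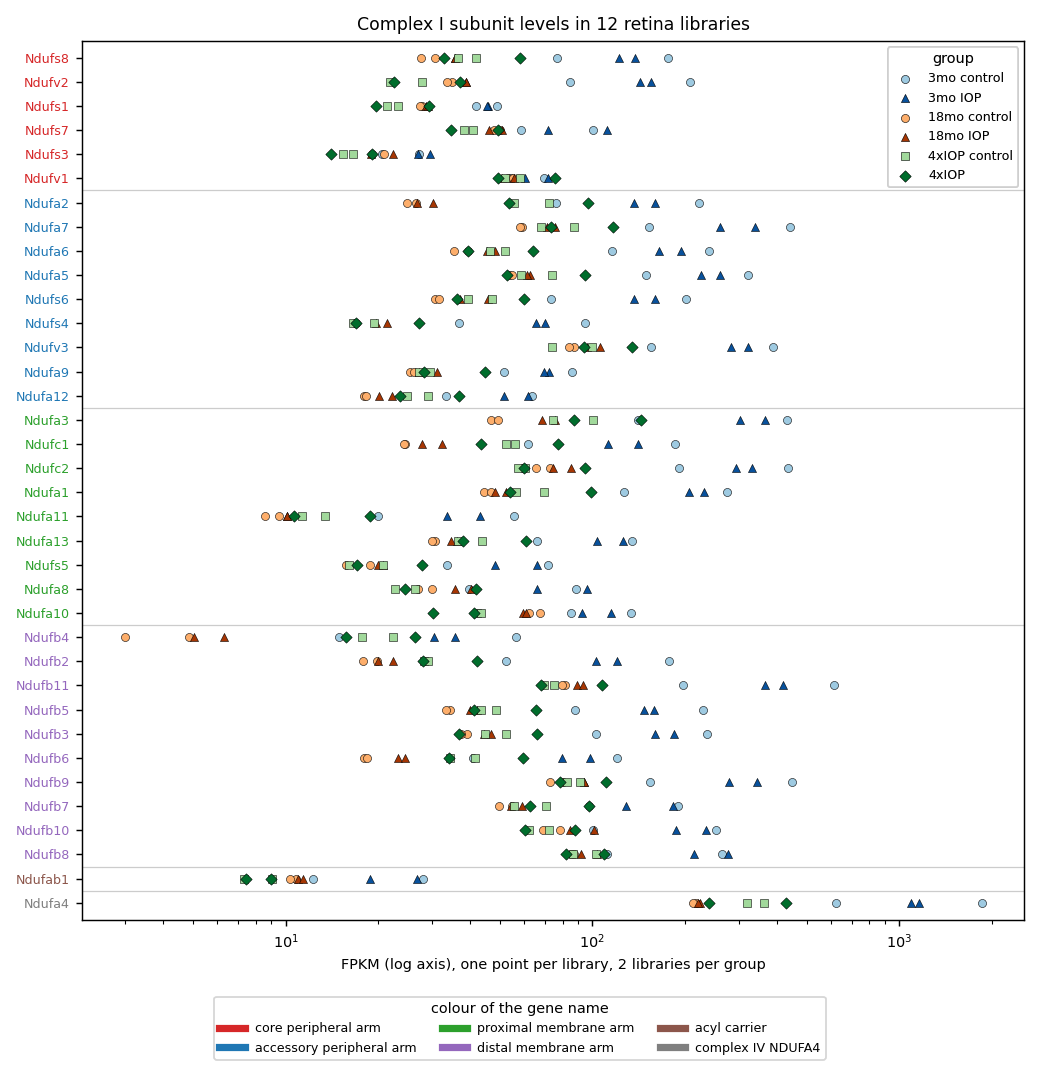
FPKM of the complex I subunits shown (rows, grouped and coloured by role) in each of the 12 libraries (x, log axis; 2 libraries per group, the 4xIOP groups from a separately normalized table). For most subunits the 4 libraries of 3-month-old mice lie to the right of the 4 libraries of 18-month-old mice, and Ndufa4 is the highest in all.

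For 33 of 37 members all 4 libraries of 3-month-old mice lay above all 4 libraries of 18-month-old mice. The share of all tested genes split in this way was not counted. All 37 members were lower at 18 than at 3 months, with a median log2 fold change of -1.83 (18mo control minus 3mo control, on log2(FPKM + 0.5)) where the median of all tested genes was 0.16. With limma across 13731 tested genes, 30 of 37 members were called lower (Benjamini-Hochberg adjusted p at most 0.05 and at least a log2 fold change of 1 in size) and 0 higher, against 11.6% of all tested genes called lower and 11.6% higher. For 35 of 37 both old control libraries lay below both young ones, which was so for 32.8% of all tested genes. The 2 members that overlapped were Ndufs3 and Ndufv1. The count rests on both old libraries: it was 17 without 18mo control replicate 1, where 5.75% of all tested genes were called lower, and 11 without replicate 2, where 4.12% were, with medians of -1.90 and -1.78.

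The core subunits split. Ndufv1, which binds NADH and the flavin at the tip of the peripheral arm, was at 54.3 and 69.7 FPKM in 3mo control and at 53.2 and 55.02 in 18mo control, and the libraries overlapped (log2 fold change -0.18 ± 0.19 SE, limma adjusted p = 0.45). Ndufs3, a core subunit of the quinone-binding module, was at 20.6 and 27.2 FPKM against 20.9 and 19.1, again with overlap (-0.24 ± 0.19, limma adjusted p = 0.33). Ndufs7, which carries the last iron-sulfur cluster before the quinone, was at 58.5 and 100.7 against 49.9 and 47.8 FPKM, without overlap but short of the threshold (-0.65 ± 0.30, limma adjusted p = 0.11). Ndufs1, the largest core subunit, was at 41.7 and 49.0 against 27.8 and 27.5 FPKM. Its difference was below the fold limit (-0.70 ± 0.16) with a limma adjusted p of 0.012.

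A pair of core subunits fell clearly. Ndufs8, which holds a pair of iron-sulfur clusters next to Ndufs7, was at 76.5 and 176.7 FPKM in 3mo control and at 27.5 and 30.7 in 18mo control, with no overlap (-1.98 ± 0.34, limma adjusted p = 0.0063). Ndufv2, the partner of Ndufv1 in the NADH module, was at 84.8 and 208.5 against 34.9 and 33.7 FPKM (-1.94 ± 0.36, limma adjusted p = 0.0073). The core thus had a median log2 fold change of -0.70, the nearest to 0 among the role groups with several members. Ndufv1 and Ndufv2, which form one module in the enzyme, stood at nearly opposite ends of the core.

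The accessory subunits were lower almost throughout. In the peripheral arm 9 of 9 were called lower, with a median log2 fold change of -1.95 and a range of -2.32 (Ndufa2) to -1.32 (Ndufa12). They include Ndufs4 and Ndufs6, named here for their place in inherited complex I deficiency, at -1.77 and -1.95. In the proximal membrane arm 8 of 9 were called, with a median of -1.83, and Ndufa10 at -0.72 ± 0.24 was the exception. The longest member, Ndufa11, was at 20.1 and 55.4 FPKM in 3mo control and at 9.49 and 8.60 in 18mo control (-1.83 ± 0.40, limma adjusted p = 0.010). The row of Ndufa10 overlaps the microRNA gene Mir6900 on the same strand. In the distal membrane arm 9 of 10 were called, with a median of -1.97, and Ndufb8 stopped just short (-0.99 ± 0.37, limma adjusted p = 0.056). Ndufab1 was not called (-0.79 ± 0.35, limma adjusted p = 0.092), and Ndufa4 fell by 2.32 ± 0.45 on the log2 scale (limma adjusted p = 0.0080).

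The largest differences were in short accessory subunits. Ndufb4, of the distal arm (mm10 chr16:37647602-37654368, minus strand), was at 15.0 and 56.5 FPKM in 3mo control and at 3.00 and 4.85 in 18mo control, on 59 and 102 reads in the old libraries. The young replicates differed 3.78-fold, the old ones did not reach the lower of them, and the log2 fold change was -2.78 ± 0.52 (limma adjusted p = 0.0074). Ndufa3, a small subunit of the proximal arm (mm10 chr7:3617373-3620163, plus strand), was at 140.6 and 432.0 against 46.8 and 49.3 FPKM (-2.35 ± 0.44, limma adjusted p = 0.0075). Ndufb2, of the distal arm, was at 52.2 and 177.2 against 17.8 and 19.9 FPKM (-2.32 ± 0.47, limma adjusted p = 0.0085). For Ndufa3 and Ndufb2 the spread lay almost wholly between the young replicates. The old replicates of Ndufb4 differed as well, by 0.61 on the log2 scale.

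**Figure D3:**
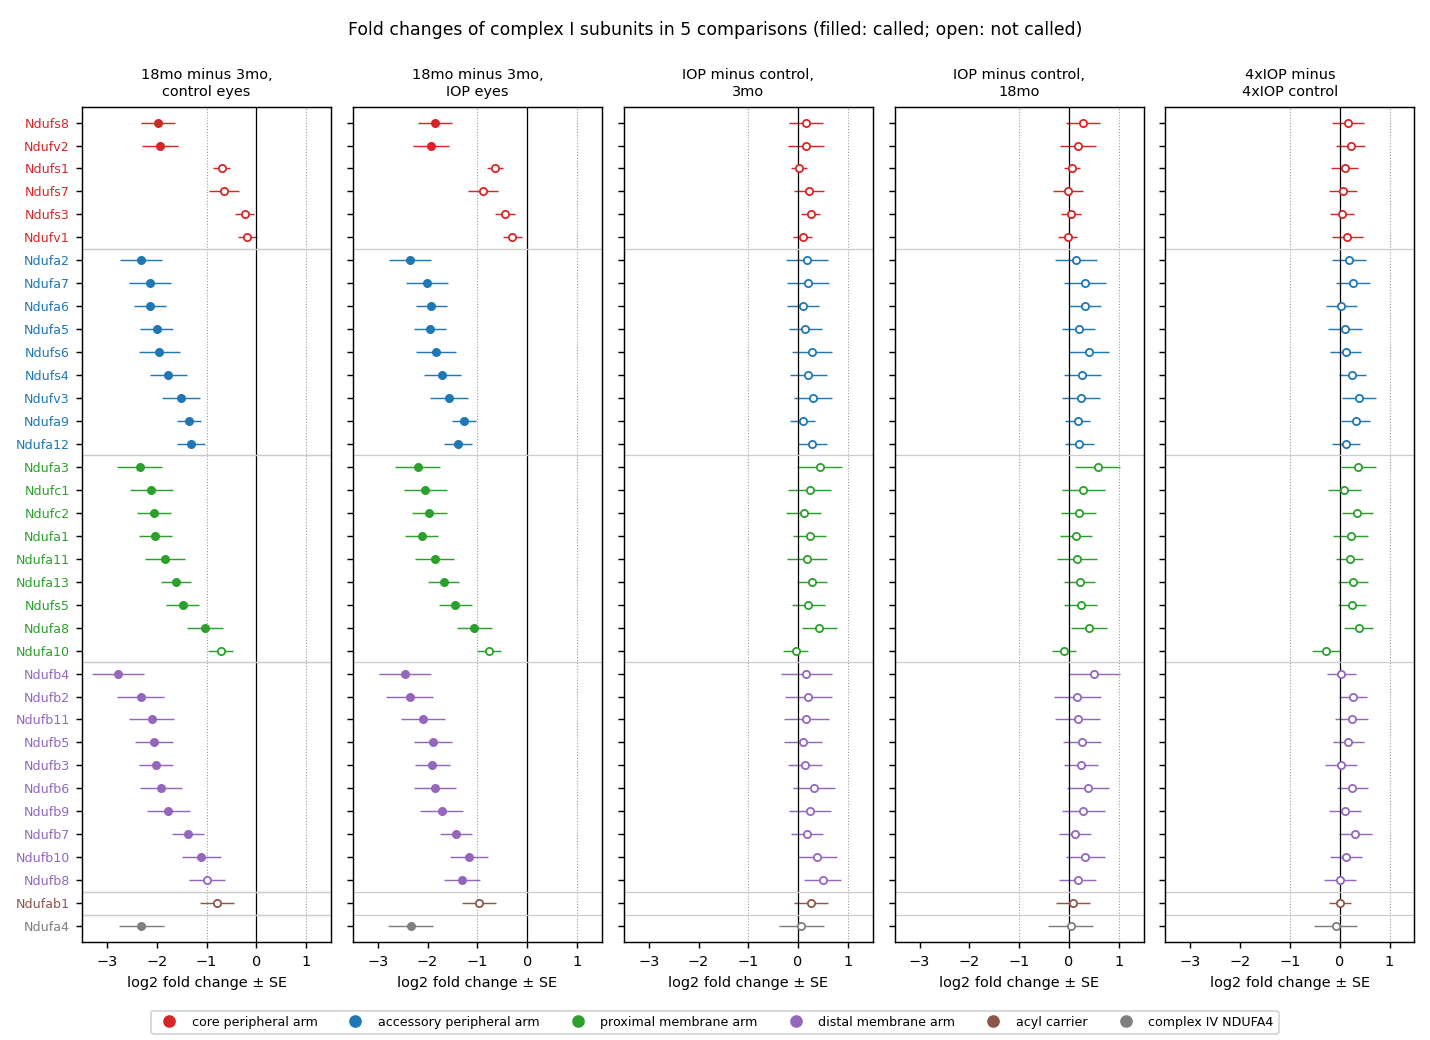
Log2 fold change with its standard error for the complex I subunits shown (rows, coloured by role) in 5 comparisons fitted with limma, 2 libraries per group; filled points passed both thresholds and dotted lines mark a log2 fold change of 1 in either direction. In both age panels all points lie left of 0 and most are filled, and in the 3 IOP panels no point is filled.

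The promoters of the 2 members with the largest and the 2 with the smallest difference are shown because members at both ends can then be read beside each other. The 250 bases before the annotated start are from RefSeq on GRCm38.p6, on the gene's strand and from 5′ to 3′, with matches to 4 short motifs in capitals. Ndufb4 (chr16:37654369-37654618, minus strand) and Ndufa3 (chr7:3617123-3617372, plus strand) differed most among the members with an entry, and Ndufv1 (chr19:4012756-4013005, minus strand) and Ndufs3 (chr2:90904722-90904971, minus strand) least.
Ndufb4: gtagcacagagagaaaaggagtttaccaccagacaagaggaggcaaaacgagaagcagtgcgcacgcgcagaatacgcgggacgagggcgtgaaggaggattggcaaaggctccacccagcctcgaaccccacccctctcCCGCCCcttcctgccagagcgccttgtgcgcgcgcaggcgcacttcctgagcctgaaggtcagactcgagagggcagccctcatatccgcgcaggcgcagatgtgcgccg
Ndufa3: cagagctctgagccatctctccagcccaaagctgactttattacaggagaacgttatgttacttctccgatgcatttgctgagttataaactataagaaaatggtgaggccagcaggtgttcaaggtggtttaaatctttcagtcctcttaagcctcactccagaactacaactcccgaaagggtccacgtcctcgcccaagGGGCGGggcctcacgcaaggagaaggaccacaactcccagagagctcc
Ndufv1: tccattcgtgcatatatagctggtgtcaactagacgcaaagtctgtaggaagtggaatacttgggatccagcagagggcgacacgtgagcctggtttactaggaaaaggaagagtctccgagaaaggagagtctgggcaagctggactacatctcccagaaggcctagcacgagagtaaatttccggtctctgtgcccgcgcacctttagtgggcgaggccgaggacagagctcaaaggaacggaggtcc
Ndufs3: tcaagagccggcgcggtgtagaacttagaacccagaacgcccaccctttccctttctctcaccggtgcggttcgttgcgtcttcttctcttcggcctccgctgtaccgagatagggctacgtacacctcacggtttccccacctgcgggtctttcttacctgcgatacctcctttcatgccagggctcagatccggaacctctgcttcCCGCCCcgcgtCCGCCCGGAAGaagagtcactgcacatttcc
The motifs, searched on both strands, were GCGCATG (the core of the NRF1 site, a regulator of respiratory chain genes), CCGGAAG (ETS factors such as GABP), AAGATGG (YY1) and GGGCGG (SP factors). The SP motif stood 110 bases before the start in Ndufb4 and 48 in Ndufa3. Ndufs3 held it at 42 and 31 bases, the second overlapping an ETS motif at 27, and Ndufv1 held none of the 4. Of the 33 members with an entry, 14 (42.4%) held the SP motif, 4 (12.1%) the NRF1 core, 3 (9.09%) the ETS motif and 0 the YY1 motif in this window, and 16 held none. Over all 27025 genes with an entry the shares were 35.4%, 3.68%, 7.83% and 5.18%. The 4 members with the NRF1 core were Ndufa6, Ndufa8, Ndufa11 and Ndufb6, with age differences from -2.14 to -1.04.

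Transcript length moved with the age difference, in members as in other genes. Over all 13731 genes the log2 fold change rose with the length of the transcript counted (Spearman 0.41, across genes, which share their libraries), and over the 37 members it did so too (0.48, and 0.73 with coding length). Among other genes under 1000 bases the median log2 fold change was -1.13 and 54.4% were called lower, while the 27 members of that length had a median of -2.01 with 23 called. From 1000 to under 2000 bases the values were -0.22 and 18.2% for other genes, and -1.33 with 6 of 8 called for members. By coding length, the 22 members from 300 to under 600 bases had a median of -1.88 with 20 called, where other genes had a median of -0.68 with 37% called lower. Members were thus lower than the middle gene of their own length class in these classes, as a description with no test, and the core subunits, with a median coding length of 789 bases against 393 for the accessory peripheral subunits, were the longer ones.

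**Figure D4:**
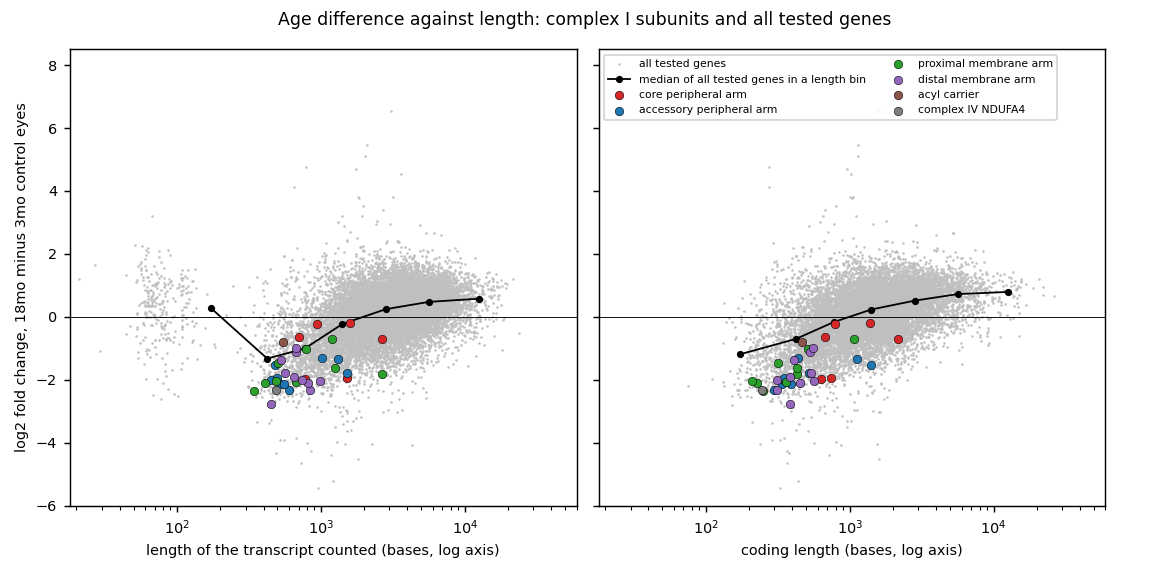
Log2 fold change between 18mo and 3mo control eyes (y) against the length of the transcript counted (left, log axis) and the coding length (right, log axis) for all tested genes (grey) and complex I subunits (coloured by role); the black line joins the medians of all tested genes in length bins. Apart from its first bin on the left, the line rises with length, and most subunits lie below it.

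Removing the length trend from each library shrank the age difference of the members without ending it. With a spline on the length of the transcript counted, 19 of 37 members were called lower against 9.02% of all tested genes, with a median of -1.01. With coding length in its place, chosen after seeing the data, 23 members were called against 9.21%, all 37 stayed below 0 and the median was -1.13. With trends in both length and GC content removed, also chosen after seeing the data, 11 were called against 4.95%, with a median of -0.65. Quantile normalization gave 24 calls against 11.3% and a median of -1.40, and voom on the recovered reads 31 against 15.2% and -2.06. With the library's short-to-long ratio as a covariate 0 of 37 members and 0 of all tested genes were called, and the median was -0.41. The ratio does not overlap between the ages, so that age and the ratio cannot be told apart in that fit.

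Members kept different shares of their difference. With the coding length trend removed Ndufb4 was still at -1.99 (limma adjusted p = 0.0059), Ndufv2 at -1.69 (0.0045) and Ndufs8 at -1.59 (0.0037). Ndufs1, long and below the fold limit before, was then at -1.07 (limma adjusted p = 0.0046). Ndufs3 came to -0.04 (limma adjusted p = 0.85) and Ndufab1 to -0.15 (0.60). With the transcript length trend removed in its place, 4 members lay above 0, and Ndufs3 was the highest at 0.52 (limma adjusted p = 0.026), below the fold limit. Ndufa11 depended on the length used: it was at -2.04 with the trend in the 2655 bases counted removed and at -1.12 with the trend in its 429 coding bases removed. With the coding length trend removed the medians of the role groups drew together. They were -1.07 for the core, -1.26 for the accessory peripheral arm, -0.91 for the proximal and -1.18 for the distal membrane arm.

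The replicates of 3mo control also stood apart from each other. All 37 members were higher in replicate 2 than in replicate 1, with a median log2 difference of 1.20, where the median of all tested genes was -0.10. The ratio ran from 1.17-fold for Ndufs1 to 3.78-fold for Ndufb4. Across the 37 members this gap ran against the age difference in IOP eyes, which shares no library with it (Spearman -0.77, and -0.67 over all 13731 genes, as a description across genes): members that differed most between the young control replicates were also those furthest below 0 with age. Without 3mo control replicate 1 the median age difference was -2.55 with 34 members called (15.2% of all tested genes), and without replicate 2 it was -1.11 with 22 called (5.67%). In 3mo IOP, 18mo control and 18mo IOP the median gap between replicates was -0.23, -0.01 and 0.05.

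In IOP eyes, measured in other libraries, the age difference had nearly the same size. All 37 members were lower at 18 months without overlap (34.5% of all tested genes), the median log2 fold change was -1.83 against 0.09 for all tested genes, and 31 were called lower by limma against a background of 11.6%, with 0 called higher (10.2%). They were the 30 called in control eyes and Ndufb8. Ndufb4 was at 35.6 and 30.4 FPKM in 3mo IOP and at 6.285 and 5.02 in 18mo IOP (-2.45 ± 0.52, limma adjusted p = 0.011). Ndufa4 was at 1162 and 1093 against 223.6 and 220.2 FPKM (-2.34 ± 0.45, limma adjusted p = 0.0088). Ndufb2 and Ndufa2, a small subunit of the peripheral arm, were both at -2.36. Of the core subunits Ndufs8 (-1.85 ± 0.34) and Ndufv2 (-1.93 ± 0.36) were again called. Ndufs7 was at -0.88 ± 0.30, Ndufs1 at -0.64 ± 0.16, Ndufs3 at -0.45 ± 0.19 and Ndufv1 at -0.30 ± 0.19, short of one or both thresholds. The young libraries were closer together here, but the count rests on both: 1 member was called without 3mo IOP replicate 1 (1.94% of all tested genes) and 3 without replicate 2 (2.34%), with medians between -1.93 and -1.69. With the transcript length trend removed 12 members were called against 7.42% of all tested genes, with the coding length trend removed 20 against 8.13%, and with length and GC trends removed 8 against 5.37%. The medians were -0.87, -1.07 and -0.57. Quantile normalization gave 24 calls (11.1%) and voom 31 (14.7%).

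**Figure D5:**
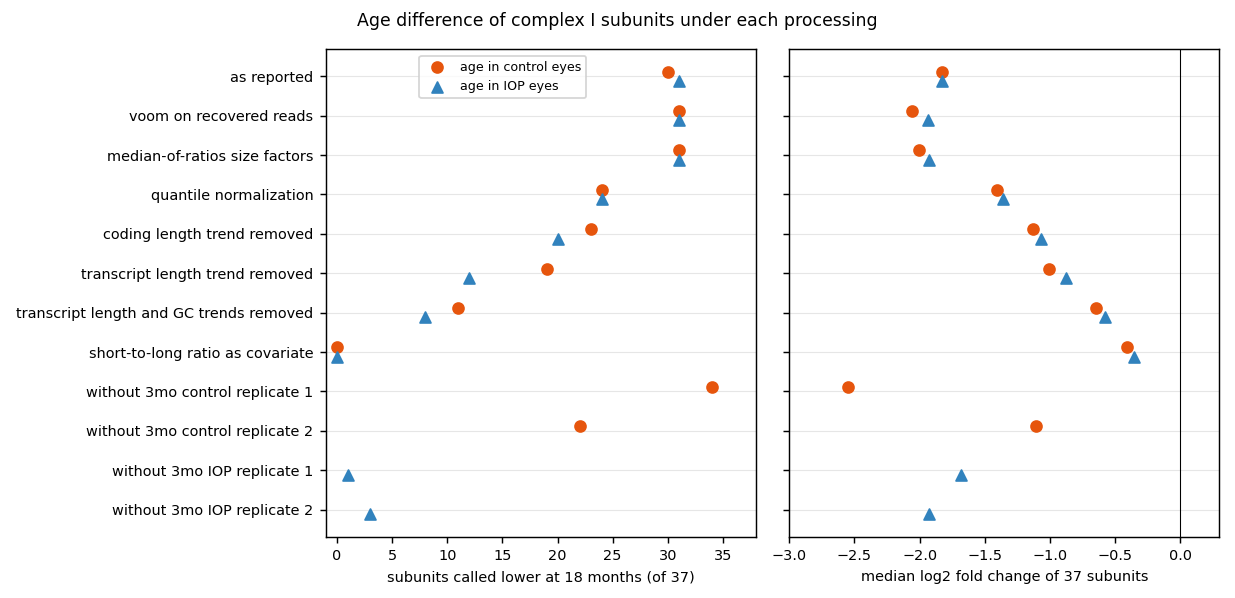
Number of the 37 complex I subunits called lower at 18 months (left) and their median log2 fold change (right) in control eyes (circles) and IOP eyes (triangles) under 12 settings, the last 4 with 1 young library left out. The medians stay below 0 in every row, from -2.55 to -0.36, and the counts run from 34 to 0.

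After a single pressure elevation no complex I subunit passed the test against control eyes at either age. At 3 months 0 of 37 members were called by limma (0.568% of all tested genes called higher, 0.00728% lower). An unadjusted p under 0.05 was found for 0 members and for 8.51% of all tested genes. The median log2 fold change (IOP minus control) was 0.20 against 0.13 for all tested genes, with a range of -0.05 (Ndufa10) to 0.50 (Ndufb8), and for no member did the groups stand apart (28.6% of all tested genes higher without overlap, 3.95% lower). Leaving out 3mo control replicate 1 gave a median of -0.40, and leaving out replicate 2 gave 0.81 with 8 members called higher (1.84% of all tested genes). Ndufa3 (0.43 ± 0.44) and Ndufa8 (0.43 ± 0.36) came next to Ndufb8. The core subunits lay between 0.0095 (Ndufs1, ± 0.16) and 0.25 (Ndufs3, ± 0.19), and Ndufa4 was at 0.07 ± 0.45.

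At 18 months the replicates were close and 31 of 37 members were higher in both IOP libraries than in both control libraries, where 36.5% of all tested genes were. The differences were small: the median was 0.20 against 0.09 for all tested genes. A call was made for 0 members (0.117% of all tested genes called higher, 0.00728% lower), and 1 member was lower without overlap (9.89%). An unadjusted p under 0.05 was reached by 0 members, where 9.45% of all tested genes reached it. Standard errors and p-values here use a spread shared by all 8 libraries of the table, the widely spaced 3mo control replicates included. Ndufa3 was at 46.8 and 49.3 FPKM in 18mo control and at 68.4 and 75.4 in 18mo IOP (0.58 ± 0.44, limma adjusted p = 0.93). Ndufb4 was at 3.00 and 4.85 against 6.285 and 5.02 FPKM (0.50 ± 0.52). Ndufa10 was the one member lower in both IOP libraries, at 59.5 and 60.7 against 67.3 and 61.9 FPKM (-0.10 ± 0.24). The core subunits lay between -0.02 (Ndufv1) and 0.29 (Ndufs8), with 3 of 7 higher without overlap, where the accessory peripheral subunits had 9 of 9. The short-to-long ratio was also higher in both IOP libraries at this age, at 1.74 and 1.87 against 1.56 and 1.496. With the transcript length trend removed 19 of the 37 estimates changed sign, and with median-of-ratios size factors 5 did. In the interaction, the IOP difference at 18 months minus that at 3 months, a call was made by limma for 0 of 37 members and for 0 of all tested genes, with a median of 0.01 and a range of -0.32 (Ndufb8) to 0.33 (Ndufb4), and 0 members had an unadjusted p under 0.05 (218 of all tested genes did).

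The 4 elevations gave no call either. In the 4xIOP comparison 0 of 37 members were called by limma, where 5.45% of all 13718 tested genes were called higher and 0.693% lower. An unadjusted p under 0.05 was found for 0 members and for 15.4% of all tested genes. The median log2 fold change was 0.17 against 0.10 for all tested genes, and it ran from -0.27 (Ndufa10) to 0.39 (Ndufv3). Ndufa10 was at 42.2 and 43.3 FPKM in 4xIOP control and at 30.2 and 41.2 in 4xIOP, and it was the one member whose groups did not overlap (12.7% of all tested genes lower without overlap, 27.7% higher). Its log2 fold change was -0.27 ± 0.28 (limma adjusted p = 0.83). Ndufa8, a proximal arm subunit, was at 26.5 and 22.7 against 24.5 and 41.9 FPKM (0.38 ± 0.30). Of the core subunits Ndufs3 was at 0.04 and Ndufv2 at 0.22, Ndufa3 was at 0.38 ± 0.35 and Ndufa4 at -0.08 ± 0.42. All 37 members were higher in 4xIOP replicate 2 than in replicate 1, by a median of 0.67, where the median of all tested genes was 0.24. The members' gap of 0.67 is larger than the difference between the groups, and replicate 2 had the higher short-to-long ratio. For 29 of 37 members all 4 libraries of this table lay below the lowest library of 3-month-old mice in the other table, and for 10 of 37 all 4 lay above the highest 18mo library. The tables were normalized separately, so these positions are given with no test. The matching shares of all tested genes were not counted, so these counts are not read as particular to the members.

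Other genes of oxidative phosphorylation and of complex I assembly were read beside the members. Of 39 subunits of complexes II to V, 29 were called lower with age in control eyes and 0 higher, beside 11.6% of all tested genes called lower, with a median log2 fold change of -1.72. Cox7b (-2.44) and Cox7a2 (-2.35), small subunits of complex IV, were the lowest, and Sdha, the flavoprotein of complex II (0.32 ± 0.17, limma adjusted p = 0.16), and Uqcrc1, a core protein of complex III (0.15 ± 0.20, 0.55), lay above 0. Of 17 assembly factors 7 were called lower and 0 higher, with a median of -0.74, led by Ndufaf8 (-1.85) and Ndufaf2 (-1.72), while Ndufaf6 (0.31) and Dmac2 (0.31) were not called. Of 12 regulators of mitochondrial biogenesis 1 was called lower, a share near that of all tested genes: Tfb1m, a methyltransferase of the mitochondrial ribosomal RNA (-1.46, limma adjusted p = 0.0056). Their median was 0.16. Ppargc1a, the coactivator PGC-1α, named here for its role, was at -0.08 and Tfam, which packages mitochondrial DNA, at -0.67. In IOP eyes the calls were 30 of 39, 8 of 17 and 1 of 12, all lower, again beside 11.6% of all tested genes. In the 3 IOP comparisons none of these lists had a call by limma, with an unadjusted p under 0.05 for 1 of 17 assembly factors at 3 months, where 8.51% of all tested genes had one, and for 2 of 17 assembly factors and 1 of 12 regulators after 4 elevations, where 15.4% did.

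Markers of retinal cell types also moved with age, and their part in the result was not tested. In bulk retina fewer cells of a type and less RNA per cell cannot be told apart. The summed FPKM of 7 rod markers was 23179 to 26667 in 3mo control and 16137 to 18144 in 18mo control, with 2 of 7 called lower (11.6% of all tested genes were called in each direction) and a median log2 fold change of -0.79. The 6 ganglion cell markers summed to 160.3 to 181.1 and to 26.9 to 59.3, with 4 of 6 called lower. The 4 pigment epithelium markers summed to 44.5 to 51.3 and to 1.26 to 2.40 (all 3 that were tested called lower), and the 5 microglia and leukocyte markers to 3.35 to 3.64 and to 12.2 to 15.2, with 3 of 5 called higher. The 4 Muller glia markers summed to 423 to 525 and to 872 to 1135, with 2 of 4 called higher, and the 5 cone markers to 883 to 1355 and to 1066 to 1329, with 1 of 5 called higher. None of these markers was at 0 in any library. The 4 lens markers summed to at most 10.4 in 3mo control and 2.47 in 18mo control, with 0 of 3 tested called, and 5 blood markers to 19.5 to 262 and 166 to 426, with 1 of 5 called higher. With a single elevation 0 markers of any list were called at either age. In 18mo IOP against 18mo control, 5 of 5 cone markers (summed FPKM 509 to 947 in 18mo IOP, median log2 fold change -0.69), 5 of 5 blood markers (44.3 to 54.3, -2.37), 5 of 7 rod markers (12239 to 14587, -0.34) and 2 of 3 tested pigment epithelium markers (0.816 to 1.59, -0.46) were lower without overlap, beside 9.89% of all tested genes. Without overlap and higher were 3 of 3 tested lens markers (3.298 to 12.5, 1.00), 3 of 5 microglia and leukocyte markers (13.3 to 34.9, 0.68), 2 of 4 Muller glia markers (965 to 1217, 0.31) and 1 of 7 rod markers, beside 36.5%. At 3 months 5 of 5 microglia and leukocyte markers were higher without overlap (7.235 to 8.57 in 3mo IOP, 0.70), beside 28.6% of all tested genes, and 3 of 7 rod markers were lower without overlap (22925 to 23891, -0.17), beside 3.95%. The part of these markers in the members' IOP values was not tested. After 4 elevations the microglia and leukocyte markers summed to 31.0 to 36.7 against 2.449 to 2.66 in 4xIOP control, with 5 of 5 called higher, and the lens markers to 29.97 to 71.96 against 0.365 to 2.81, with all 3 that were tested called higher (5.45% of all tested genes). The pigment epithelium markers summed to 0.69 to 1.39 against 6.69 to 11.96, with both that were tested called lower, and the cone markers to 163 to 235 against 483 to 494, with 3 of 5 called lower (0.693% of all tested genes). The rod markers summed to 4745 to 7241 against 9931 to 10325, with 0 of 7 called. Without overlap 6 of 7 were lower (median log2 fold change -1.08), beside 12.7% of all tested genes. The 4 Muller glia markers summed to 359 to 450 against 714 to 745, with 0 called. Of these 2 were lower and 2 higher without overlap, beside 12.7% and 27.7% of all tested genes.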

How the data were processed

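Retinal poly-A libraries, strand-specific, were aligned by the authors to mm10 with STAR 2.7.8a, who counted uniquely mapped tags over the exons of 1 isoform per gene with HOMER and deposited FPKM for 12 libraries in 2 tables, each normalized by itself. Per the labels, 6 groups held 2 libraries each. Genes averaging 0.5 FPKM or more over a table (13731 and 13718 of 25124) were fitted with limma 3.58.1 (R 4.3.3) on log2(FPKM + 0.5), with a variance trend, no replicate block and Benjamini-Hochberg adjustment over all tested genes, each table apart. All groups of a table shared the same estimate of a gene's spread. A gene was called where the adjusted p did not exceed 0.05 and the log2 fold change reached 1 in either direction (for the interaction of IOP with age, the adjusted p alone). The fit was tested on simulated data. Reads were recovered from FPKM and transcript length, which gave the tags per library and whole numbers, within 0.1 read beyond the rounding of the file, for 100.0% of the values whose rounding was under 0.1 read. Exons held 44.2% to 71.5% of these tags, with at most 53.7% in the second table, where the RNA gene Rpph1 took up to 82734 FPKM. Coding lengths and GC content are from GENCODE M21. GC content was known for 93.2% and 91.8% of tested genes. The members and gene lists were chosen with earlier results of these data known. Named were the core subunits (values of a single member are not reported here), the 3 lowest and 3 highest log2 fold changes of a comparison, the shortest and longest transcripts, the highest and lowest mean levels, and of other lists the called genes or the 2 largest each way. Others are named as ends of a range, exceptions to a count or for a known role, after their values were seen. Alternatives were other pseudocounts, filters, scalings, length corrections, voom on the recovered reads, a replicate block and leaving out each library.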

Additional observations from a re-analysis of the deposited data

How the results depend on the processing

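The direction of the age difference held for the median of the members in both eyes under every setting run, while its size and the counts of calls followed how length was handled. In control eyes, where 30 members were called with a median of -1.83, the values were 19 and -1.01 with the transcript length trend removed (the same with the replicate block added), a median of -1.13 with the coding length trend removed, 11 and -0.65 with transcript length and GC trends removed, and 0 and -0.41 with the short-to-long ratio as a covariate. In IOP eyes, where 31 were called with a median of -1.83, they were 12 and -0.87 (the same with the replicate block), 20 and -1.07, 8 and -0.57, and 0 and -0.36. With the ratio as a covariate 3 called members changed sign, at adjusted p from 0.38 to 0.88: Ndufb10 (0.34 in control and 0.30 in IOP eyes), Ndufa8 (0.26 in both) and, in IOP eyes, Ndufb8 (0.062). In each case the cause was not tested.

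Leaving out 1 library gave 11 to 34 calls and medians of -2.55 to -1.11 in control eyes, while 4.12% to 15.2% of all tested genes were called lower in these fits, and 1 to 24 calls and medians of -1.93 to -1.69 in IOP eyes, with 1.94% to 10.5% of all tested genes called lower. A lone library left in a group was assumed to vary like the others. At 3 months the IOP comparison gave 0 to 8 calls and medians of -0.40 to 0.81, at 18 months 0 and 0.19 to 0.21, for the interaction of IOP with age 0 and -0.61 to 0.66, and after 4 elevations 0 and -0.16 to 0.52. In the IOP comparisons signs of single members are not stable: 31 of 37 turned at 3 months with the transcript length trend removed and 18 with size factors. Size factors moved the median of all tested genes from 0.16 to 0.0096 for age in control eyes, where 31 members and 14.3% of all tested genes were called lower, and from 0.13 to -0.04 for IOP at 3 months.

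Same-numbered treated and control libraries did not deviate together (r = -0.28, -0.53 and -0.29 over all tested genes at 3 months, 18 months and after 4 elevations), so the numbers were not taken as pairs. The replicate block gave 27 calls in control eyes (10.1% of all tested genes called lower) and 27 in IOP eyes (9.69%), and with the numbers crossed, a pairing chosen after seeing the data, 30 (12.2%) and 31 (12.4%), with 0 in the IOP comparisons either way. The shallowest member value rested on 59 reads (Ndufb4), and 2 libraries a group leave 4 residual degrees of freedom in the first table and 2 in the second.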
